A study of Homo sapiens with 6 samples.

Results

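Keratins and the progenitor and biliary markers of liver cells were examined as a set of 10 genes chosen by symbol: KRT7, KRT8, KRT18, KRT19, KRT23, SOX4, SOX9, PROM1, CD24 and ANPEP. Of these, 9 were among the 16305 genes with values, and KRT23 was not analysed here. RNA-seq compared Huh7-R cells (Huh7SR in the sample labels), a sorafenib-resistant pool derived from the human hepatocellular carcinoma line Huh7 by long-term exposure to the kinase inhibitor sorafenib, after treatment with fostamatinib or with its solvent DMSO. Fostamatinib is an inhibitor of the spleen tyrosine kinase (SYK), but the authors did not detect SYK protein in Huh7 cells. They proposed that the drug acts through other targets. Each group had 3 samples treated for 24 h, and the labels give 2 µM for fostamatinib and write the same figure for DMSO. Both groups came from the resistant pool, parental Huh7 cells were not part of the comparison, and Huh7-R is a selected culture of 1 cell line. The authors took sorafenib out of the medium of resistant cells for some days before all experiments.

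Keratins are the intermediate filament proteins of epithelial cells, and a filament is built from pairs of a type I and a type II keratin. Hepatocytes make almost only KRT8 and KRT18, whereas the cells lining the bile ducts also make KRT7 and KRT19. Bile duct cells and the bipotent progenitors of the liver further carry the transcription factor SOX9 and surface proteins such as PROM1 (CD133) and CD24, and in liver cancer KRT19, PROM1, CD24 and ANPEP (CD13) are used as markers of progenitor-like or tumor-initiating cells.

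After fostamatinib, 6 of the 9 genes were lower, 2 were higher and 1 did not pass the test (adjusted p-value under 0.05, limma). The falls were those of KRT8, KRT18, SOX4, SOX9, PROM1 and CD24, and the rises those of KRT19 and ANPEP, while KRT7 did not pass. Among all genes 47.8% were called by the same test, 24.5% lower and 23.3% higher. Of the 10312 genes that averaged 100 reads or more, 61.1% were called, 32.5% lower and 28.6% higher. The fostamatinib samples all lay on the same side of the DMSO samples for 8 of the 9 genes, which was so for 54.1% of all genes. None of the 9 changed more than 2-fold, whereas 7.13% of all genes both passed the test and changed more than 2-fold. The median log2 fold change of the 9 genes was -0.47, against 0.0015 over all genes.

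Values are log2 CPM (log2 of read counts, each raised by 0.5 and scaled to library size), and errors of group means are SDs with n = 3. The samples held 13303451 to 15272737 reads on the listed genes. Samples of the same group correlated at 0.9879 or higher across genes and samples of different groups at 0.9719 or lower. The labels say that treatments were applied in triplicate, without saying that the cultures were separate, so the p-values measure the spread between these samples, which may be technical. In bulk RNA, fewer cells carrying a marker and less RNA of it per cell cannot be told apart.

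**Figure D1:**
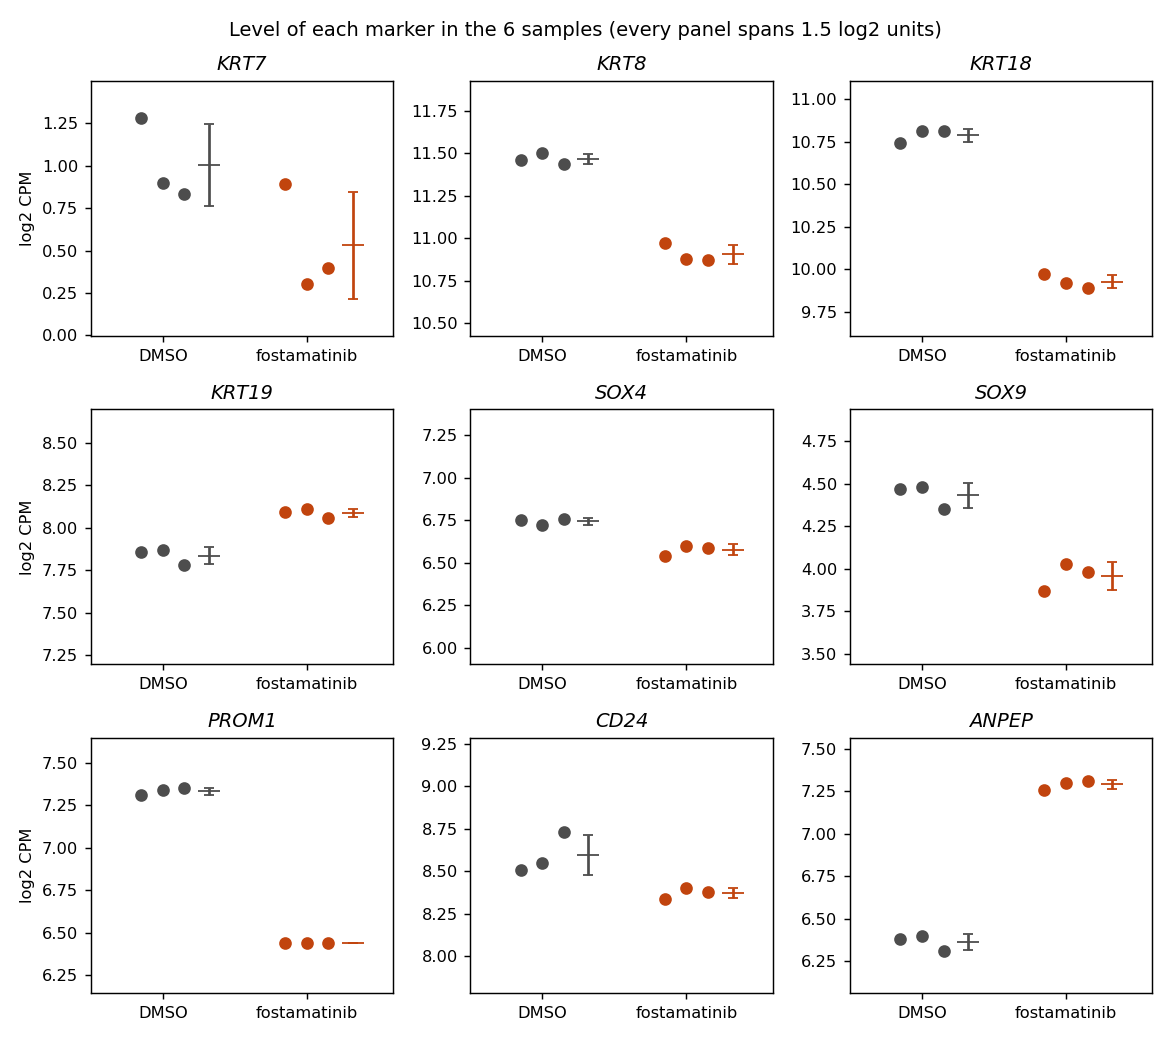
Deposited log2 CPM of the 9 listed genes in each of the 3 DMSO and 3 fostamatinib samples, 1 panel per gene, with points for samples and, beside them, the group mean and SD. Each panel spans the same range of log2 CPM. The groups stand apart in 8 panels and overlap for KRT7, which lies at 0.30 to 1.28 log2 CPM.

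Of the type II keratins, KRT8 (ENSG00000170421, GRCh37 chr12:53290971-53343738, - strand) is the filament partner of KRT18 in simple epithelia and had the most reads of the 9 genes. Its values were 11.46, 11.50 and 11.44 log2 CPM under DMSO, against 10.97, 10.88 and 10.87 under fostamatinib. Every fostamatinib sample was below every DMSO sample, and the distance between the groups was several times the spread within either. The mean went from 11.47 ± 0.028 to 10.91 ± 0.057, a log2 fold change of -0.56 (SE 0.032, 95% interval -0.63 to -0.50, limma adjusted p-value 9.58e-17), and KRT8 fell by 32.3%.

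KRT7 (ENSG00000135480, GRCh37 chr12:52626304-52645970, + strand), the type II keratin of bile ducts, was close to the lower limit of what was measured. Only 33, 28 and 26 reads were counted under DMSO, against 25, 17 and 17 under fostamatinib, or 1.28, 0.90 and 0.83 against 0.89, 0.30 and 0.40 log2 CPM. The highest fostamatinib sample lay within the DMSO range. The log2 fold change of -0.48 had an SE of 0.26, and its 95% interval ran from -1.01 to 0.06 (limma adjusted p-value 0.141). At this depth neither the absence of a difference nor a fall of the size seen for KRT8 could be shown. The gene model also overlaps those of KRT7-AS, KRT86 and KRT87P.

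Among the type I keratins, KRT18 (ENSG00000111057, GRCh37 chr12:53342655-53346690, + strand) gave 10.74, 10.81 and 10.81 log2 CPM under DMSO, against 9.97, 9.92 and 9.89 under fostamatinib. The 3 samples of each group lay close together and the groups were far apart. The mean went from 10.79 ± 0.041 to 9.93 ± 0.042, a log2 fold change of -0.86 (SE 0.033, 95% interval -0.92 to -0.79, limma adjusted p-value 1.19e-21), and KRT18 fell by 44.8%. Of all genes, 11.9% had a larger absolute change.

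KRT8 and KRT18 lie beside each other on opposite strands, and their gene models share 1084 bases (GRCh37 chr12:53342655-53343738). The libraries were made with a directional kit, but the strand setting of the counting is not given in the sources used here, so reads from this stretch cannot be assigned to either gene with certainty. Processed copies of both genes took few reads. The 6 listed copies of KRT8 had 207 to 370 reads in all per sample, 0.719 to 0.883% of the reads of KRT8 and its copies, and the 5 listed copies of KRT18 had 18 to 55 reads, or 0.13 to 0.238%. With the copies' reads added to the parent gene, the log2 fold changes remained -0.56 and -0.86. Among the 12 listed copies of these genes and CD24, 4 were lower (KRT8P3, KRT8P45, KRT18P11 and KRT18P17) and 8 did not pass the test.

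KRT19 (ENSG00000171345, GRCh37 chr17:39679869-39684560, - strand), a type I keratin of bile ducts and progenitors that pairs with KRT7 and KRT8, went the other way. Its values were 7.86, 7.87 and 7.78 log2 CPM with DMSO and 8.09, 8.11 and 8.06 with fostamatinib. The lowest fostamatinib sample exceeded the highest DMSO sample. From 7.84 ± 0.048 the mean rose to 8.09 ± 0.024, a log2 fold change of 0.25 (SE 0.039, 95% interval 0.17 to 0.33, limma adjusted p-value 1.80e-06), or an increase of 18.8%. The change was small beside those of KRT8 and KRT18, and 53.0% of all genes had a larger absolute change.

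**Figure D2:**
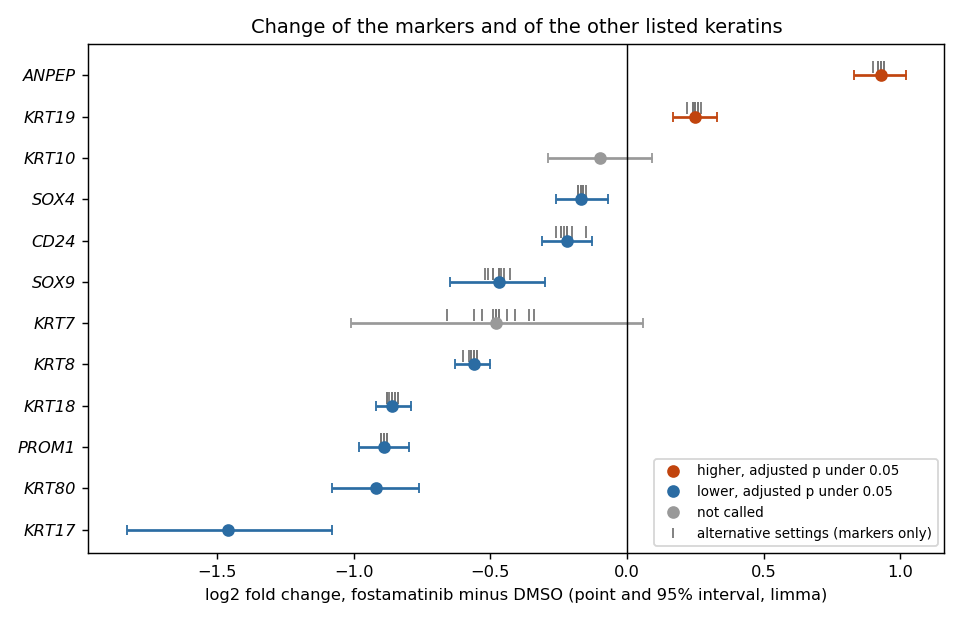
Log2 fold change (fostamatinib minus DMSO) of the 9 listed genes and of KRT10, KRT17 and KRT80 from limma, with points for the estimate, bars for the 95% interval and short ticks for the estimates of the 9 genes under other processing choices. The 9 genes run from -0.89 for PROM1 to 0.93 for ANPEP, and the intervals of KRT7 and KRT10 include 0.

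Because the keratins moved unequally, their proportions were compared within each sample, on the scale of RPKM (CPM divided by the kb of exon of the gene), which allows different genes to be set side by side. Over the 7 listed keratins (the 4 above with KRT10, KRT17 and KRT80), the sum was 1104.6 ± 18.6 RPKM with DMSO and 726.1 ± 21.7 with fostamatinib. Within this sum, KRT19 made up 9.13, 8.90 and 8.55% under DMSO, against 15.5, 16.4 and 16.1% under fostamatinib. Its share was thus higher in all 3 fostamatinib samples, with means of 8.86 ± 0.29% and 16.0 ± 0.47%. KRT18 held 52.1 ± 0.92% with DMSO and 43.8 ± 0.13% with fostamatinib, and KRT8 37.3 ± 0.52% and 38.4 ± 0.47%. The shares and the sum restate, on another scale, the changes of the separate keratins given above and are not separate evidence. An exact permutation test of the group means gave a p-value of 0.1 for the sum and for the shares of KRT8, KRT18 and KRT19. This is the smallest p-value that the test can give here.

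Per kb, the ratio of KRT8 to KRT18 was 0.738, 0.719 and 0.693 under DMSO, against 0.891, 0.864 and 0.879 under fostamatinib. These ranges did not overlap, and the means were 0.717 ± 0.022 and 0.878 ± 0.013. Across all type II and type I keratins the ratio was 0.619 ± 0.015 with DMSO and 0.644 ± 0.014 with fostamatinib, and the samples of the groups overlapped. The same permutation test gave p-values of 0.1 for the KRT8 to KRT18 ratio and 0.2 for the type II to type I ratio. With 3 samples per group it cannot go below 0.1, so no separation of the groups could pass 0.05. KRT7 stayed below 0.1% of the sum in every sample, with means of 0.0452 and 0.0491%. Ratios of this kind depend on the exon length chosen. With the longest transcript in place of all exons, the KRT8 to KRT18 ratio was 1.17 and 1.44 and the KRT19 share 8.13 and 14.5%, so the order of KRT8 and KRT18 turned while both differences kept their direction.

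**Figure D3:**
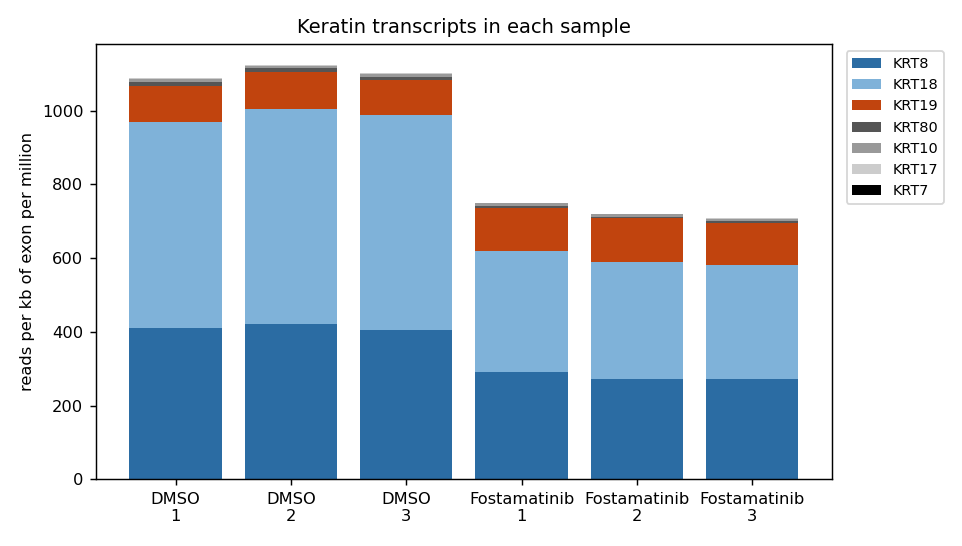
RPKM of the 7 listed keratins in each of the 6 samples, as stacked bars that start at 0. The total is 1087.5 to 1124.4 under DMSO and 708.4 to 750.4 under fostamatinib, where KRT19 takes a larger share.

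The 3 other listed keratins gave 2 falls and 1 gene that did not pass. KRT17, a type I keratin of basal and stressed epithelia, had a log2 fold change of -1.46 (SE 0.18, limma adjusted p-value 3.20e-08), from a mean of 95.7 to 32.7 reads. KRT80, a type II keratin, fell by 0.92 on the log2 scale (SE 0.08, limma adjusted p-value 5.63e-12). KRT10, a type I keratin of differentiated epidermis, was at -0.10 (limma adjusted p-value 0.421). Among the 7 listed keratins, KRT19 was the only rise.

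Proteins that anchor keratins at cell junctions, together with other intermediate filaments, did not share a direction. Of 17 tested, 7 were higher, 8 were lower and 2 did not pass, with a median log2 fold change of -0.01. JUP, the desmosomal plakoglobin, rose by 0.62 (SE 0.046, limma adjusted p-value 9.78e-14), and EPPK1, a keratin-binding plakin, by 0.46. The non-keratin filaments NES (-1.22, SE 0.056, limma adjusted p-value 2.07e-19) and VIM (-0.54, SE 0.032, limma adjusted p-value 1.64e-16), usual in progenitor and mesenchymal cells, fell. The nuclear lamins were split, with LMNA at 0.47 and LMNB1 at -0.51 on the log2 scale.

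SOX9 (ENSG00000125398, GRCh37 chr17:70117161-70122557, + strand) is a transcription factor of bile ducts and liver progenitors. It measured 4.47, 4.48 and 4.35 log2 CPM with DMSO and 3.87, 4.03 and 3.98 with fostamatinib, from 201 to 341 reads per sample. Its groups were separate. The mean went from 4.44 ± 0.073 to 3.96 ± 0.08, a log2 fold change of -0.47 (SE 0.085, 95% interval -0.65 to -0.30, limma adjusted p-value 1.59e-05), and SOX9 fell by 28.0%.

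SOX4 (ENSG00000124766, GRCh37 chr6:21593982-21598850, + strand), which acts with SOX9 in bile duct development, gave 6.75, 6.72 and 6.76 log2 CPM with DMSO and 6.54, 6.60 and 6.59 with fostamatinib. The groups did not overlap, but the difference of the means was the smallest of the genes that passed. The mean went from 6.74 ± 0.022 to 6.58 ± 0.035, a log2 fold change of -0.17 (SE 0.046, 95% interval -0.26 to -0.07, limma adjusted p-value 0.0033), and SOX4 fell by 10.8%. Both SOX genes overlap annotated non-coding genes on the other strand, with the limit on strand given for KRT8 and KRT18. Of the 4 other listed SOX genes none fell, 2 rose (SOX6 by 0.68 and SOX13 by 0.32 on the log2 scale) and 2 did not pass.

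PROM1 (ENSG00000007062, GRCh37 chr4:15964699-16086001, - strand) encodes prominin-1, or CD133, a glycoprotein of membrane protrusions. It had the largest fall of the 9 genes. The DMSO samples measured 7.31, 7.34 and 7.35 log2 CPM and the fostamatinib samples 6.44 each. Replicates were close in both groups and the groups were far apart. The mean went from 7.33 ± 0.023 to 6.44 ± 0.00084, a log2 fold change of -0.89 (SE 0.044, 95% interval -0.98 to -0.80, limma adjusted p-value 1.85e-18), and PROM1 fell by 46.0%. Of all genes, 11.1% had a larger absolute change. The gene model of FGFBP2 overlaps that of PROM1 on the same strand.

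ANPEP (ENSG00000166825, GRCh37 chr15:90328126-90358633, - strand) encodes aminopeptidase N, or CD13, a membrane enzyme that removes amino acids from the ends of peptides and is abundant on bile canaliculi and brush borders. It had the largest rise of the 9 genes. Its values were 6.38, 6.40 and 6.31 log2 CPM with DMSO and 7.26, 7.30 and 7.31 with fostamatinib. The groups were separated by many times their spread. The mean rose from 6.36 ± 0.045 to 7.29 ± 0.029, a log2 fold change of 0.93 (SE 0.046, 95% interval 0.83 to 1.02, limma adjusted p-value 1.43e-18), or an increase of 90.0%. Of all genes, 10.3% had a larger absolute change.

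Promoter windows in RefSeq (GRCh38.p14, 250 bases before and 50 after each annotated start) were found for 5 of the 10 genes, with 11 windows in all, and not for KRT7, KRT18, KRT19, KRT23 or SOX9. The bases before the start are shown for the pair with the largest fall and the largest rise, PROM1 and ANPEP, with capitals for the motif matches. ANPEP is known to have an upstream promoter, used in myeloid cells, and a downstream one used in epithelia, and PROM1 has several starts. Which start was used was not measured by the gene-level values, for these genes or for the others with a window. A window may thus lie at a start that these cells do not use.
PROM1 window 1, chr4:16084024-16084273, - strand: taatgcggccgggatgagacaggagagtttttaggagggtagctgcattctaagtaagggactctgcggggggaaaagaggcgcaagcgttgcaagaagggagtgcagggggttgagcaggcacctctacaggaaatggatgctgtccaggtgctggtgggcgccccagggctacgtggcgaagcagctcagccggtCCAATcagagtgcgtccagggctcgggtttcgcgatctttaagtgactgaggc
PROM1 window 4, chr4:16076119-16076368, - strand: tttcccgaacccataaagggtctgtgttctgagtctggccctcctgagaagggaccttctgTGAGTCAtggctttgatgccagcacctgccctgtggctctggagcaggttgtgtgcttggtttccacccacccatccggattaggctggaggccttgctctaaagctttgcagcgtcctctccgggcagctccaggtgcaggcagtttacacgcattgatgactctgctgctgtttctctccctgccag
ANPEP window 1, chr15:89814853-89815102, - strand: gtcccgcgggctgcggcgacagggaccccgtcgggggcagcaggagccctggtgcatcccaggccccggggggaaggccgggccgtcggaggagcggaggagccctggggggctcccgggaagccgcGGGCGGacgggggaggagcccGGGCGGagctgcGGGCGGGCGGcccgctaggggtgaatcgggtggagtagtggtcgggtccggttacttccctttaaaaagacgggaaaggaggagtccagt
ANPEP window 2, chr15:89806629-89806878, - strand: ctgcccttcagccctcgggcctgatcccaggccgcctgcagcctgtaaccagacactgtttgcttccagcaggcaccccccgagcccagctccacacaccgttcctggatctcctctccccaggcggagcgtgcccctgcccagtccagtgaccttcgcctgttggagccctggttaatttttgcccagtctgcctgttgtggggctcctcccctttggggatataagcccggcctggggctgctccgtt
The motifs searched on both strands were AP-1 (TGANTCA), ETS (CCGGAA), SOX (ACAAT), the CCAAT box, the TATA box (TATAAA) and the GC box (GGGCGG). They occurred in 7.71, 17.2, 27.4, 34.6, 11.5 and 45.0%, respectively, of the 35116 RefSeq windows of the same length. PROM1 window 1 held a CCAAT match whose first base lay at position -53 from the start, and PROM1 window 4 an AP-1 match at -189. The other PROM1 windows, not shown, held GC boxes too, window 2 at 13 and 34 after the start and window 3 at -14, beside an ETS match at 18. CD24 windows 1 and 3 also held a GC box each, at -99 and -71. ANPEP window 1, with 74.0% G or C, held 4 GC-box matches, at -123, -102, -90 and -86, of which the last pair overlap by their letters, while ANPEP window 2, with 64.4% G or C, held none of the 6 motifs. Motifs of different kinds did not overlap in these 4 sequences. The SOX4 window held 4 CCAAT matches, and the KRT8 window an ETS match at -57 and a SOX match at -156. A match describes letters only and shows no binding.

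CD24 (ENSG00000272398, with no model in the GRCh37 annotation used) encodes a small mucin-like surface protein of progenitor cells and many carcinomas. It gave 8.51, 8.55 and 8.73 log2 CPM with DMSO and 8.34, 8.40 and 8.38 with fostamatinib. The groups did not overlap, but DMSO replicate 3 stood above the other two. The mean went from 8.59 ± 0.12 to 8.37 ± 0.035, a log2 fold change of -0.22 (SE 0.043, 95% interval -0.31 to -0.13, limma adjusted p-value 5.20e-05), and CD24 fell by 14.2%. Without DMSO replicate 3 the log2 fold change was -0.15 (limma adjusted p-value 5.83e-04), and without the mean-variance trend in limma CD24 no longer passed (adjusted p-value 0.0615). The copy CD24P4 had 34 to 60 reads per sample, 0.699 to 0.943% of the reads of both.

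On the RPKM scale, the DMSO means ran from KRT18 (575.1 ± 16.1) and KRT8 (412.1 ± 7.9) through KRT19 (97.9 ± 3.2), SOX4 (21.6 to 22.2 over its 3 samples), PROM1 (21.6 ± 0.34), ANPEP (16.3 ± 0.5) and SOX9 (5.50 ± 0.27) down to KRT7 (0.498 ± 0.088). SOX4 and PROM1 overlapped in their DMSO samples and could not be ordered. After fostamatinib the means were 31.0 ± 0.61 for ANPEP, 19.6 ± 0.47 for SOX4 and 11.7 ± 0.0068 for PROM1, so that ANPEP stood above both. With the longest transcript as the length, KRT8 was above KRT18 and PROM1 above SOX4 in the DMSO samples. CD24 has no level on this scale for want of a gene model.

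Other markers of the same cell types moved in both directions. Of 21 cholangiocyte genes tested among 27 named, 9 were higher, 7 were lower and 5 did not pass, with a median log2 fold change of 0.12. The hepatic and biliary transcription factor ONECUT1 rose by 1.42 (SE 0.14, limma adjusted p-value 1.05e-10) and the annexin ANXA4 by 0.93. SPP1, or osteopontin, fell by 1.82 (SE 0.12, limma adjusted p-value 9.64e-15), from a mean of 226.0 to 59.3 reads. The mucin MUC1 was at -1.31 and the annexin ANXA3 at -0.81, both lower by the test.

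Liver progenitor and stemness genes were likewise split, with 6 higher, 7 lower and 3 not passing of 16 tested and a median log2 fold change of -0.35. The WNT target and receptor LGR5 rose by 1.65 (SE 0.14, limma adjusted p-value 1.57e-12), the retinal dehydrogenase ALDH1A1 by 1.63 (SE 0.034, limma adjusted p-value 2.70e-29) and the transcription factor TBX3 rose 2.83-fold. Those that fell included the telomerase subunit TERT (-1.41), the hyaluronan receptor CD44 (-1.20, SE 0.037, limma adjusted p-value 2.96e-24) and the chromatin protein HMGA2 (-1.12). PROM1, CD24 and SOX9 were thus accompanied by falls of some and rises of other genes used as markers of the same cells.

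Regulators of biliary fate and their target genes, in the Notch, YAP and TGF-beta pathways, gave 11 falls and 1 rise among 22 tested. The other 10 did not pass, and the median log2 fold change was -0.23. Each pathway had genes that fell and genes that did not pass. The YAP targets ANKRD1 (-2.23, SE 0.053, limma adjusted p-value 1.18e-27) and CTGF (-1.68, SE 0.082, limma adjusted p-value 1.41e-18) and the ligand TGFB2 (-1.42) fell most. The rise was that of the receptor TGFBR2, at 0.19.

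For ANPEP, related enzymes and the structures that carry it were compared. Of 14 aminopeptidases and ectopeptidases tested, 3 were higher, 6 were lower and 5 did not pass, with a median of -0.01 on the log2 scale. ENPEP, aminopeptidase A, rose by 0.88 (SE 0.12, limma adjusted p-value 1.09e-07), and LVRN, a further membrane aminopeptidase, was lower, at -0.58 (SE 0.16, limma adjusted p-value 0.00348). Microvillus and brush border genes gave 9 rises, no fall and 2 genes that did not pass of 11 tested. The median log2 fold change was 1.43, and it ran from 1.18 to 1.76 when samples were left out singly. Of the 11 genes, 4 averaged fewer than 50 reads in both groups. The mucin MUC13 rose by 3.31 (SE 0.059, limma adjusted p-value 2.59e-31), from a mean of 204.3 to 1914.3 reads, the scaffold PDZK1 by 2.87 and the scaffold USH1C by 1.84. PROM1, also a protein of microvilli, was not in that list and fell.

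**Figure D4:**
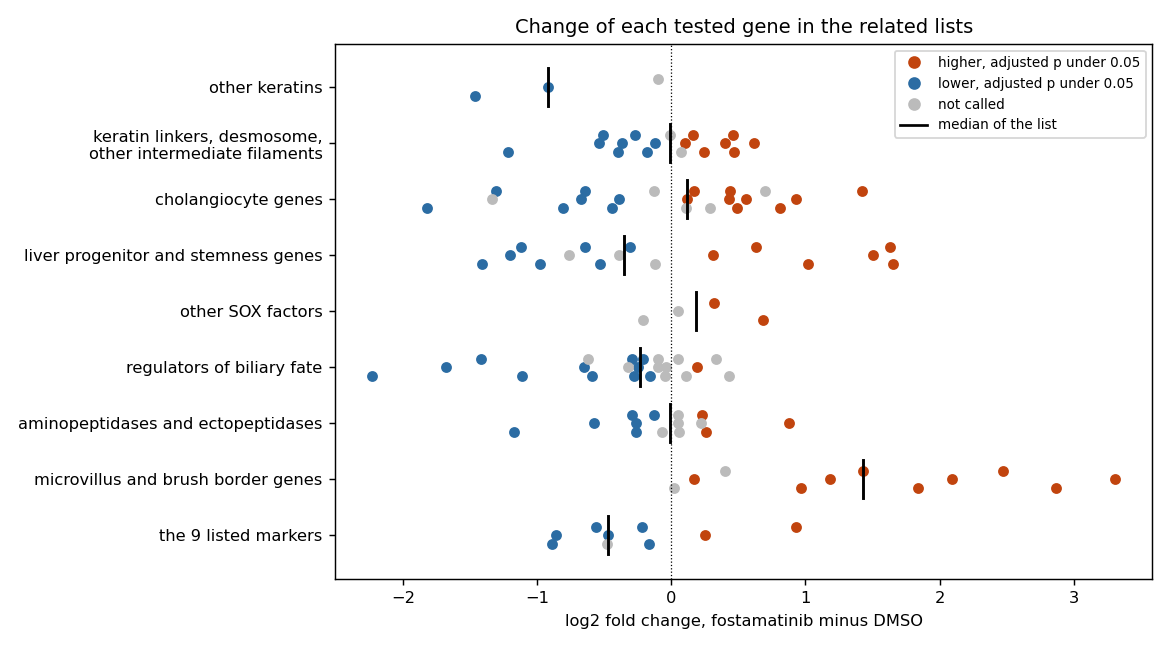
Log2 fold change of each tested gene in the related lists and of the 9 listed markers, with 1 point per gene, colored by call, and a line at the list median. The medians run from -0.92 for the other keratins to 1.43 for the microvillus and brush border genes.

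Defining markers were used to check the cell type. Of 14 hepatocyte markers 12 were listed, and 10 rose, none fell and 2 did not pass. Their summed level was 3923.8 to 4205.3 CPM with DMSO and 6437.4 to 6879.3 with fostamatinib. Named after the values were seen, FGA (mean 11645.0 to 26721.7 reads) and FGB (13624.0 to 21435.7) gained the most reads. ASGR1 (mean 11.3 reads with DMSO and 14.3 with fostamatinib) and TAT (9.3 and 17.3) did not pass. G6PC and CYP3A4 were not listed. Of 15 markers of fibroblasts, endothelium and leukocytes, 8 were listed, at a sum of 313.4 to 323.4 and 327.5 to 330.2 CPM, of which 3 rose, 1 fell and 4 did not pass. The leukocyte markers PTPRC and CD3E, the endothelial VWF, CDH5 and KDR, and the fibroblast marker DCN were not among the listed genes. Others of the same list were measured, named here after their values were seen. The collagen gene COL1A2 had a mean of 2095.3 reads with DMSO and 2538.0 with fostamatinib and rose by 0.37 on the log2 scale, and LUM, or lumican, went from 2177.7 to 1549.0 reads and fell by 0.40. PDGFRB, with 28 to 40 reads per DMSO sample and 55 to 63 per fostamatinib sample, rose by 0.95, and PECAM1, with 84 to 103 and 120 to 141 reads, by 0.51. LYZ (145.7 and 138.3 reads), COL1A1, COL3A1 and CD14 did not pass the test. The 9 keratin and marker genes summed to 5503.8 to 5671.8 CPM with DMSO and 3780.5 to 3957.9 with fostamatinib. The part of these markers in the differences was not tested.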

How the data were processed

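RNA-seq of Huh7-R cells was analysed in 3 fostamatinib and 3 DMSO samples, grouped by the sample labels. The authors aligned reads with HISAT (hg19), used featureCounts for the counts per gene, removed genes under 5 reads in at least 2 of 3 samples per group and applied TMM scaling. The deposited values are log2 CPM with 0.5 added to each count, from which 100% of the values gave whole reads within 0.05. The depth of 13303451 to 15272737 reads per sample leaves genes such as KRT7, with 17 to 33 reads, imprecise.

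A linear model with treatment as its only term was applied to all 16305 genes (limma 3.58.1, R 4.3.3, eBayes with trend), with Benjamini-Hochberg adjustment over all genes. Moderation borrows the spread of other genes (median 33.9 total against 4 residual degrees of freedom). Tables and plots used Python 3.11.15, numpy 2.4.6, pandas 2.3.3, scipy 1.17.1 and matplotlib 3.10.9. Gene models were from GENCODE mapped to GRCh37 and found for 98.7% of genes. They came from a later GENCODE release than the one the authors counted with, so exon lengths and overlaps may differ from those counted.

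All 10 genes are named. From each related list up to 3 rises and 3 falls are named, by size, among genes called by the test that averaged 50 reads or more in the higher group and whose groups did not overlap, with the listed copies of the 10 genes. A few genes covered by this choice are not reported here. The genes and lists were chosen with earlier results of these data known. Alternatives were limma-voom on the recovered reads, no trend, other scalings, pseudocounts, filters and gene lengths, the replicate number as a block and leaving out each sample.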

Additional observations from a re-analysis of the deposited data

How the results depend on the processing

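Over 13 alternatives, 116 of 117 values of the 9 genes kept their direction and their side of the threshold, and none reversed. The exception was CD24, at -0.22 with an adjusted p-value of 0.0615 without limma's trend, which left 7 of the 9 genes called instead of 8. KRT7 missed the threshold throughout, with adjusted p-values of 0.0656 to 0.392. The count over all genes ranged from 6382 to 7977. Same-numbered samples did not deviate together (correlations of 0.034, -0.044 and 0.041, with 2 of 6 samples closest to their own number). Pairing by replicate number was thus not detected, but 3 samples per group cannot show its absence. With the number as a block, 7977 genes and the same 8 of the 9 genes passed. With each sample left out in turn, 1 to 3 of the 12 copies were called instead of 4, and the low value came from omitting DMSO replicate 2 or 3. With the longest transcript as the length, the differences in the KRT8 to KRT18 ratio and in the KRT19 share were 0.263 and 6.38 percentage points, against 0.161 and 7.16. Depth limits KRT7, the copies and some genes of the related lists, which have few reads.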
